A study of Mus musculus with 30 samples.

Results

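Imprinted genes, which are expressed from 1 parental allele, were followed through 32 days of retinal organoid formation from mouse induced pluripotent stem cells (iPSCs). The 40 genes were taken by symbol from the deposited gene table, in which they filled 43 of 45594 rows. Dlk1, Rtl1 and Rian each had 2 rows with identical values, on chromosome 12 and on an assembly patch of that region. Their levels below are the sum of both rows, and their tests used the chromosome 12 row.

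The material came from 1 iPSC clone, made from embryonic fibroblasts of wild-type Nrl-GFP mice with doxycycline-inducible lentiviral Oct3/4, Sox2, Klf4 and c-Myc. Libraries of polyadenylated RNA were made in triplicate, labelled as biological replicates, on differentiation days (D) D0, D4, D7, D10, then D12, D15, D18, D22, and lastly D25 and D32. D0 was iPSCs grown on feeder cells, D4 was whole organoids (36 per library), and from D7 on neural retina was dissected out (30 organoids at D7, 20 at D10 and 12 from D12). The cultures were kept in 5% oxygen until D10 and 20% afterwards, and from D10 to day 26 the medium held insulin-like growth factor 1 (100 ng/ml), 9-cis retinal and taurine. B27 without vitamin A, amino acids and serum were added from day 26. Whether D10 samples were taken before or after the switch of oxygen and medium is not given in the sources used here. All groups shared the clone and the reporter, and nothing in the labels ties replicate numbers of different days to each other.

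Imprinted genes lie mostly in clusters, each governed by a control region whose DNA methylation is set in the egg or the sperm. At many clusters a long noncoding RNA is made from the allele on which the neighbouring protein-coding genes are silent. Many paternally expressed members promote growth, many maternally expressed members restrain it, and a number of both kinds are abundant in the developing brain and eye. RNA-seq counts of this kind sum both alleles, so no value below tells which allele was transcribed, and the parental alleles named are textbook background.

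The Dlk1-Dio3 cluster on chromosome 12 carries paternally expressed Dlk1, Rtl1 and Dio3 and the maternally expressed noncoding RNAs Meg3, Rian and Mirg, which host microRNAs. It is shown first because the difference between replicate 2 and replicates 1 and 3 of D10 to D25 was noticed in Meg3 and Rian. Mature microRNAs from RefSeq (GRCm38.p6) that lie on the host's strand numbered 3 in Meg3, 6 in Rian and 26 in Mirg, and further ones lie opposite to Rtl1, on the strand of Meg3. Examples from each host follow, with the seed (bases 2 to 8) in capitals. The 26 of Mirg carried 25 seeds, and miR-453 and miR-496a-5p were the ones that shared a seed. MicroRNAs themselves were not measured in these polyadenylated libraries.
miR-770-5p (Meg3, chr12:109563710-109563731, plus strand): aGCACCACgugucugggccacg
miR-433-3p (opposite to Rtl1, chr12:109591781-109591802, plus strand): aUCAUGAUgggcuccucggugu
miR-127-3p (opposite to Rtl1, chr12:109592888-109592909, plus strand): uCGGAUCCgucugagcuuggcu
miR-370-3p (Rian, chr12:109618305-109618326, plus strand): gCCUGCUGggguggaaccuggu
miR-453 (Mirg, chr12:109735669-109735692, plus strand): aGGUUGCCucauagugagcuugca
miR-496a-5p (Mirg, chr12:109739132-109739152, plus strand): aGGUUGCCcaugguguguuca
miR-409-3p (Mirg, chr12:109743204-109743225, plus strand): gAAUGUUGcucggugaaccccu
Igf2, H19 and Mest, which fell together between D10 and D25, also host microRNAs.
miR-483-5p (Igf2, chr7:142654968-142654989, minus strand): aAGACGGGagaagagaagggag
miR-675-5p (H19, chr7:142577112-142577133, minus strand): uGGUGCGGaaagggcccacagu
miR-335-5p (Mest, chr6:30741314-30741336, plus strand): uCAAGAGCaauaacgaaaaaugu

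Promoters of 4 members that differed between replicate 2 and replicates 1 and 3 of D10 to D25 are shown as RefSeq windows (GRCm38.p6), 250 bases before to 50 after a start. TGCCGC, on either strand, is the hexamer bound by ZFP57, a zinc finger protein that keeps imprints, when it is methylated. Matches are in capitals, and the one in each of Plagl1, Grb10 and Meg3 reads as the reverse complement. The Peg3 window holds none, and it overlaps the window of the divergent gene Usp29, which also holds none. Where a gene had several windows, the one with the hexamer was chosen for display. The other windows of Meg3 (chr12:109545148-109545447, at the start of Meg3-001) and Grb10 (chr11:12027922-12028221) hold none.
Meg3 (chr12:109540746-109541045, plus strand): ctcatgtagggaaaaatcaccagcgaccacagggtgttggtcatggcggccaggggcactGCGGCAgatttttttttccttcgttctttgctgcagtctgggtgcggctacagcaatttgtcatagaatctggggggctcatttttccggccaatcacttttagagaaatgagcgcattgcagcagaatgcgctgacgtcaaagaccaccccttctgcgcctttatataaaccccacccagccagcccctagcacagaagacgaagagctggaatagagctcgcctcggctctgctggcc
Grb10 (chr11:12037371-12037670, minus strand): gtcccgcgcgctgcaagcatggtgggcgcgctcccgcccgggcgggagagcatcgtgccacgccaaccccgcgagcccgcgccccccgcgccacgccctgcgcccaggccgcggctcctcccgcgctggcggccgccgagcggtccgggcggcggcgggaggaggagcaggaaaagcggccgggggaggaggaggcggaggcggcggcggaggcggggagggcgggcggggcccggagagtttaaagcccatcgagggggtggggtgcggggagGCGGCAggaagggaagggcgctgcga
Plagl1 (chr10:13090582-13090881, plus strand): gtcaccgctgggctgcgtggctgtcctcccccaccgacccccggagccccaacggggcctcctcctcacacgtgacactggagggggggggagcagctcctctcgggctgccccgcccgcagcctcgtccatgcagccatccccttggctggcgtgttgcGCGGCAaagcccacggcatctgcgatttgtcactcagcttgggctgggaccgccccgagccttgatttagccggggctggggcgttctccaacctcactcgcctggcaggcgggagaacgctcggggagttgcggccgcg
Peg3 (chr7:6730370-6730669, minus strand): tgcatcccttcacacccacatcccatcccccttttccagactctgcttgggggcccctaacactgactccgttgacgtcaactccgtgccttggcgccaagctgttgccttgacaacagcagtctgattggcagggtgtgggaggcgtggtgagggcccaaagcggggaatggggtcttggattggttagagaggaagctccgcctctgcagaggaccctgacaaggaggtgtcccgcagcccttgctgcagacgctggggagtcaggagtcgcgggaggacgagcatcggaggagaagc
Windows were at hand for 31 members, and 10 of them held the hexamer in at least 1 window, against 13.1% of 27025 genes. Member windows also held more CpG, with a median of 15 against 7 over all windows. These are counts of letters and say nothing of binding or methylation in these cells.

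Depth lay between 16.77 and 24.53 M estimated counts per library (median 19.23 M). Levels are TMM-scaled CPM (counts relative to library size), and "changed", "higher" and "lower" mean an adjusted p below 0.05 in edgeR's quasi-likelihood test with Benjamini-Hochberg adjustment over all tested genes. Libraries stood apart in 2 sets that the labels do not name. The share of Rpl3-family counts given to Rpl3 pseudogenes was 12% to 31.8% in 12 libraries, namely the D0 and D7 libraries and every replicate 2 between D10 and D25. It was 70.9% to 86.5% in the other 18, which are the D4 and D32 libraries and the rest of D10 to D25. The set thus cannot be told apart from the day at D0, D4, D7 and D32, nor from the replicate number between D10 and D25. Values within a set are given below where they bear on a result. D4 replicate 2 had the lowest scaling factor (0.524), and D4 entered no pairwise test here.

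Over the 10 days 37 of the 40 members changed (92.5%), against 91.4% of all 19897 genes tested. The 3 that did not pass were Meg3 (adjusted p = 0.23), Rian (adjusted p = 0.11) and Mirg (adjusted p = 0.075, edgeR). Highest day means were spread over the course: 5 members had theirs at D0, 4 at D4, 10 at D7, 3 each at D10, D12, D15 and D18, 1 at D25 and 8 at D32.

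**Figure D1:**
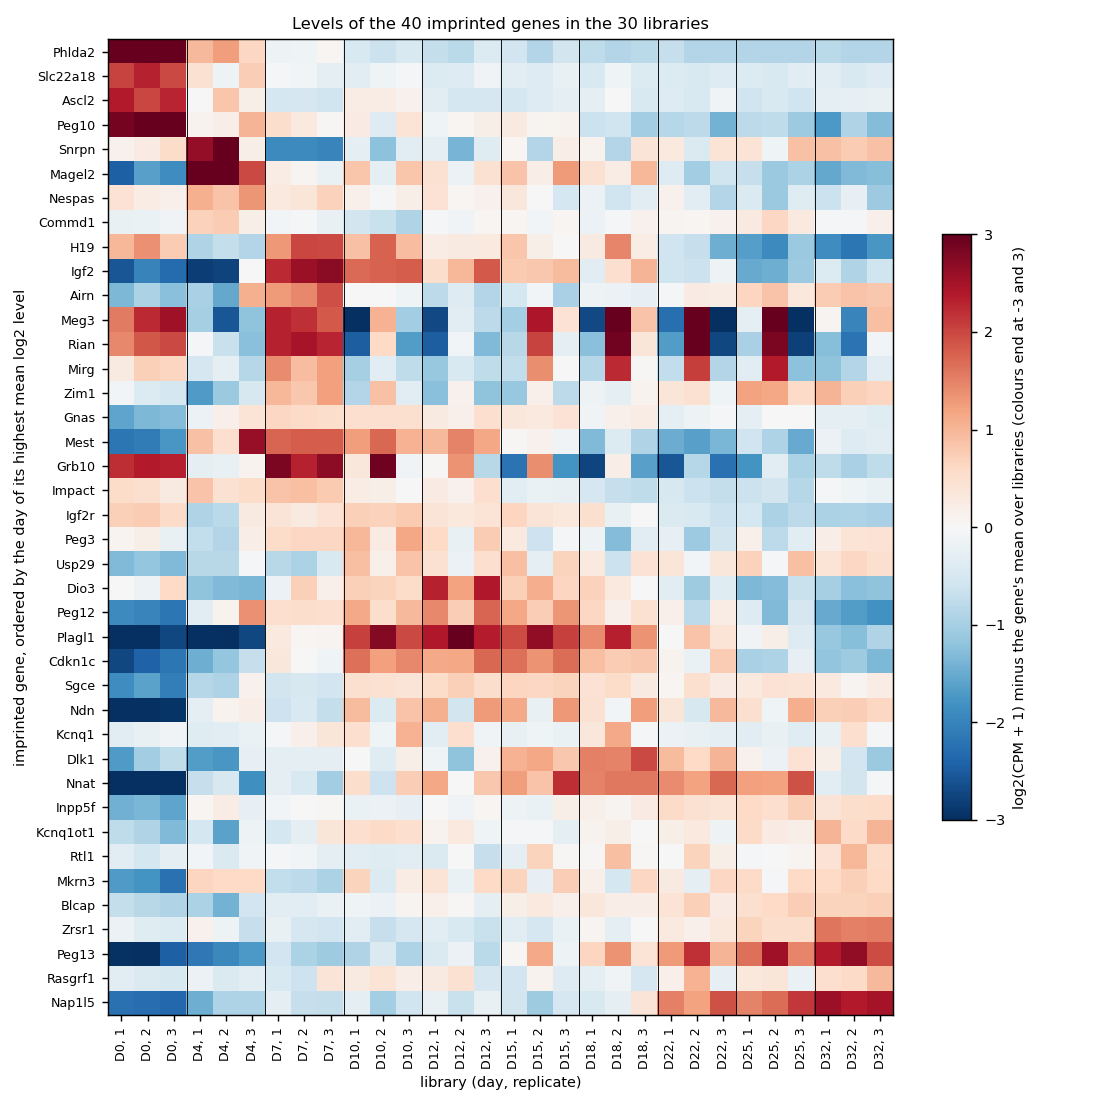
Level of each of the 40 imprinted genes (rows) in each of the 30 libraries (columns, by day and replicate), as log2(CPM + 1) minus the mean of that gene over all libraries; rows are ordered by the day of the highest mean log2 level. Phlda2, Ascl2 and Peg10 stand out at D0, Igf2 and Mest at D7, Plagl1 at D12 and Nap1l5, Peg13 and Zrsr1 at D32, while Meg3, Rian and Grb10 differ between replicate 2 and replicates 1 and 3 of the same day.

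Levels compared between genes are given per length, as length-scaled TPM computed from the transcript counts and lengths. Gnas, the stimulatory G protein subunit, was the highest member at D0 (239 ± 20 TPM), at D7 (1120 ± 51.8 TPM) and at D32 (782 ± 51.9 TPM; SD, n = 3 each). Nnat, a small proteolipid of the endoplasmic reticulum of developing neurons, was the highest at D18 (1970 ± 71 TPM) and D25 (1980 ± 495 TPM). Igf2 followed Gnas and Mest (900 ± 13.6 TPM) at D7 with 581 ± 87 TPM. Plagl1, a zinc finger regulator of growth genes, followed Nnat and Gnas at D12 with 697 ± 263 TPM.

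Among the members with more RNA in neural retina at D7 than in iPSCs at D0 were Igf2, Mest, Plagl1 and Nnat, and the 5 with less were Phlda2, Ascl2, Slc22a18, Peg10 and Snrpn. Of the 40 members 21 were higher and 5 lower (65%), against 58.4% of all tested genes called, 28.8% higher and 29.6% lower. The median member differed by 0.79 on the log2 scale, against 0 over all tested genes. Both days lie in the same library set. The feeder markers (6 of 6 detected) summed to 70.9 to 83.2 CPM at D7 and 451 to 1220 CPM at D0, and the part of feeder cells in the D0 values was not tested. In bulk RNA, fewer cells of a type and less RNA per cell cannot be told apart.

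Igf2, the fetal growth factor, had 846, 1070 and 1170 CPM at D7, against 29, 43.1 and 35.1 CPM at D0. It was higher by 4.84 ± 0.55 on the log2 scale (SE; edgeR adjusted p = 4.3e-08), with no overlap between the days. H19, the maternally expressed noncoding RNA that shares its enhancers, had 199, 328 and 323 CPM at D7, against 163, 209 and 137 CPM at D0. Its difference was far smaller (0.74 ± 0.31, edgeR adjusted p = 0.042), and the days overlapped.

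Mest, a paternally expressed member of the hydrolase fold family, had 1090, 1140 and 1140 CPM at D7, against 71.5, 75.7 and 97 CPM at D0. That was 3.79 ± 0.38 higher on the log2 scale (edgeR adjusted p = 4.4e-09), with no overlap. Copg2, which overlaps Mest on the opposite strand, averaged 105 CPM at D7 and 121 CPM at D0 and did not pass the test (-0.21 ± 0.12, edgeR adjusted p = 0.13). Plagl1 had 218, 186 and 188 CPM at D7, against 21.2, 17.4 and 26.2 CPM at D0 (log2 difference 3.19 ± 0.62, edgeR adjusted p = 9.3e-05). Every D7 library lay above every D0 library for it.

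Among members known from neurons, Nnat had 327, 294 and 195 CPM at D7, against 12.4, 12.6 and 14.3 CPM at D0. Ndn, a MAGE protein of postmitotic neurons from the Prader-Willi region, had 84.3, 93.8 and 78 CPM at D7, against 11.22, 12.14 and 15.97 CPM at D0. Peg12 of the same region had 45.6, 46.2 and 45.5 CPM at D7, against 7.75, 7.3 and 6.32 CPM at D0. None of the 3 overlapped between days, and their log2 differences were 4.38 ± 0.41, 2.71 ± 0.48 and 2.68 ± 0.36 in that order (edgeR adjusted p = 1.8e-09, 2.6e-05 and 6.5e-07). Further members higher at D7 were Airn, Nap1l5, Magel2, Cdkn1c, Peg13, Gnas, Zim1, Inpp5f, Sgce, Mkrn3, Dlk1, Kcnq1ot1, Blcap and Impact, with log2 differences between 0.42 (Impact) and 3.47 (Airn). The call of Dlk1 (0.97 ± 0.41, edgeR adjusted p = 0.048) was lost in 20 of the alternatives tried, with adjusted p up to 0.18.

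The 5 members lower at D7 include 3 genes of the Kcnq1 cluster that are known from the placenta. Phlda2, which restrains placental growth, had 0.64, 0.682 and 0.912 CPM at D7, against 24.5, 36.7 and 49.3 CPM at D0 (log2 difference -5.62 ± 0.54, edgeR adjusted p = 5e-09). Ascl2, a bHLH factor needed for spongiotrophoblast, averaged 0.0342 CPM at D7 and 6.04 CPM at D0, and the transporter Slc22a18 0.263 CPM at D7 and 4.96 CPM at D0. Trophoblast markers summed to 33.5 to 45.9 CPM at D7 and 89.9 to 96.4 CPM at D0, and their part in these differences was not tested. Most of the sum was Tfap2c, with means of 37.1 CPM at D7 and 84.8 CPM at D0. Each other listed marker averaged at most 2.68 CPM at D0, so the sum rests on a single gene.

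Peg10, a retrotransposon-derived gene needed for placenta formation, had 108, 91.2 and 76.5 CPM at D7, against 553, 616 and 601 CPM at D0. It was lower by a log2 difference of -2.68 ± 0.25 (edgeR adjusted p = 1e-09). Its divergent neighbour Sgce, the epsilon-sarcoglycan, moved the other way, with 24.7, 26 and 24.3 CPM at D7, against 9.33, 11.3 and 7.96 CPM at D0 (1.39 ± 0.20, edgeR adjusted p = 1.2e-06). No library of one day overlapped the other day for either gene.

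Snrpn, which encodes a spliceosome protein, had 44.2, 43.5 and 41.4 CPM at D7, against 183, 198 and 245 CPM at D0 (log2 difference -2.28 ± 0.47, edgeR adjusted p = 0.00019). Between those days its 3 libraries of D4 disagreed, with 1040, 1380 and 189 CPM. Magel2, a MAGE gene of the same region, also stood high at D4 with 84.3, 90.6 and 33.6 CPM, and at 6.74 to 9.31 CPM at D7 and 0.618 to 1.85 CPM at D0. Mest showed the opposite order at D4, with 603, 460 and 1990 CPM. D4 replicate 3 was thus low for Snrpn and Magel2 and high for Mest, Igf2 and Plagl1 among the D4 libraries.

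**Figure D2:**
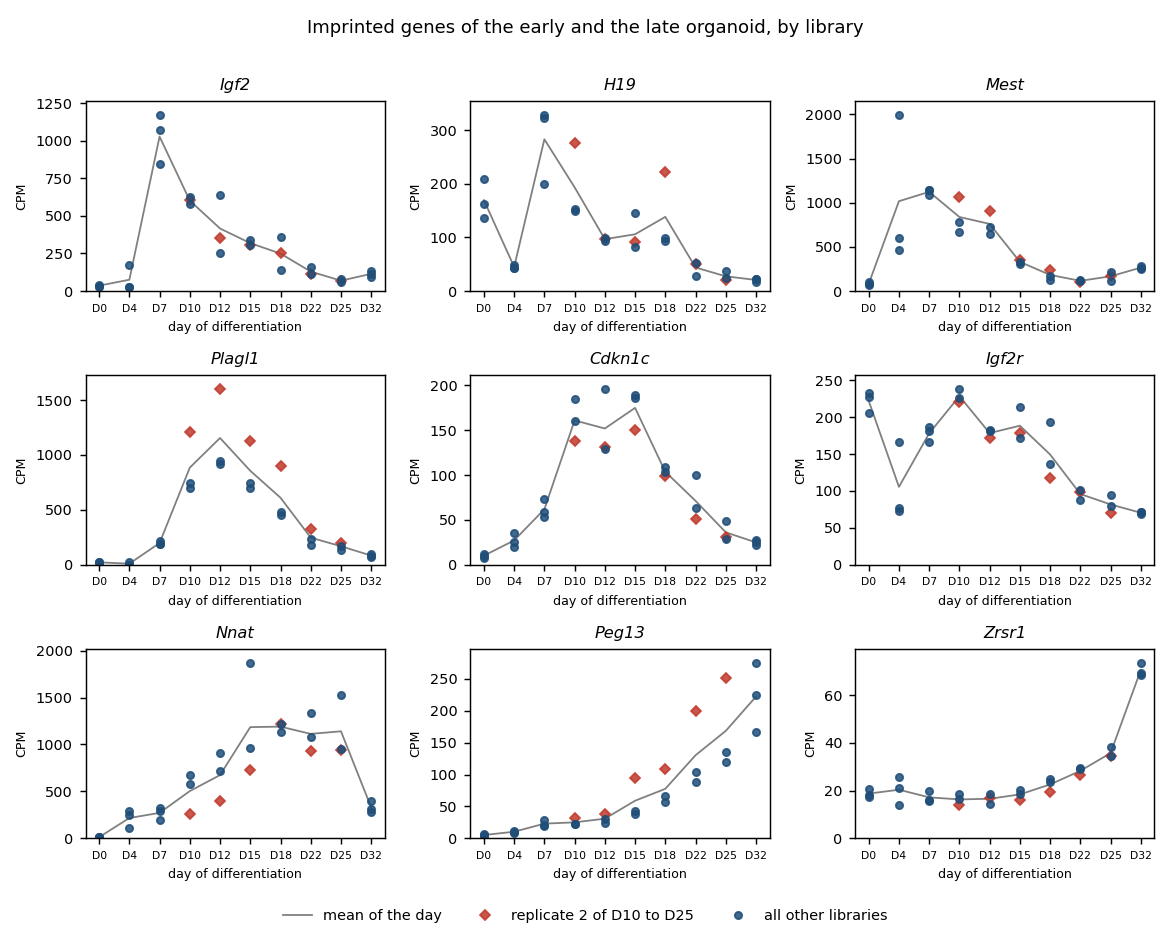
CPM (vertical axes, from 0) of 9 imprinted genes on each day of differentiation (horizontal axes, days at equal spacing); diamonds are replicate 2 of D10 to D25, circles all other libraries, and the line joins the means of the days. Igf2, H19 and Mest peak at D7, Plagl1 at D12 and Cdkn1c at D15, Nnat lies between 726 and 1870 CPM in every library from D15 to D25, and Zrsr1 reaches 68.6 to 73.6 CPM at D32.

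At D10, the day of the change of oxygen and medium, 9 members were higher and 3 lower than at D7 (30%), against 37.8% of all tested genes called, 20% higher and 17.8% lower. The D7 libraries all belong to the set with few pseudogene counts, of which D10 holds replicate 2 alone, so the values below are given in the order of replicates 1, 2 and 3.

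Plagl1 had 741 CPM in replicate 1, 1210 CPM in replicate 2 and 702 CPM in replicate 3 of D10, against 186 to 218 CPM at D7. It was higher by 2.17 ± 0.59 (edgeR adjusted p = 0.0052), and by 2.59 with the library set as a term (adjusted p = 0.00099, edgeR). Cdkn1c, the inhibitor of cyclin-dependent kinases that halts the cycle of retinal progenitors, had 185, 138 and 160 CPM at D10, against 73.6, 59.2 and 52.8 CPM at D7. The log2 difference was 1.38 ± 0.24 (edgeR adjusted p = 6.6e-05), and 1.14 with the set as a term (adjusted p = 0.00039, edgeR). Usp29, named for its likeness to deubiquitinases, had 49.9, 29.1 and 48.2 CPM at D10, against 14.1, 12.9 and 18.7 CPM at D7 (1.48 ± 0.32, edgeR adjusted p = 0.00072, and 0.89 at an adjusted p of 0.001 with the set as a term). All D10 libraries lay above all D7 libraries for these 3 genes.

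Members of the Snrpn cluster depended on which D10 libraries were read. Ndn had 251 and 237 CPM in replicates 1 and 3 of D10 and 97.7 CPM in replicate 2, against 78 to 93.8 CPM at D7. Snrpn had 140 and 132 CPM in replicates 1 and 3 of D10 and 71.4 CPM in replicate 2, against 41.4 to 44.2 CPM at D7. Both were called higher (1.19 ± 0.44, edgeR adjusted p = 0.036 for Ndn, and 1.41 ± 0.46, edgeR adjusted p = 0.018 for Snrpn). With the library set as a term both calls were lost, at 0.23 for Ndn (edgeR adjusted p = 0.45) and 0.71 for Snrpn (edgeR adjusted p = 0.14). Ndn was also lost without any of the D7 libraries or D10 replicate 1 or 3 (edgeR adjusted p = 0.069 to 0.13). Snrpn was lost without D7 replicate 2 or 3 or D10 replicate 1 or 3 (edgeR adjusted p = 0.051 to 0.064). Leaving out D10 replicate 1 lost the call of Mkrn3, a ubiquitin ligase of the same region (1.13 ± 0.31 with it, edgeR adjusted p = 0.0059, and 0.83 without it, edgeR adjusted p = 0.059). With the set as a term it was 0.52 (edgeR adjusted p = 0.024).

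Sgce had 51.2, 50.9 and 47.9 CPM at D10, against 24.7, 26 and 24.3 CPM at D7 (1.00 ± 0.19, edgeR adjusted p = 0.00017). Kcnq1ot1, the antisense RNA of the Kcnq1 domain, had 127, 134 and 127 CPM at D10, against 62.3, 73.1 and 116 CPM at D7 (0.62 ± 0.25, edgeR adjusted p = 0.048). Ascl2 was called higher at 0.756, 0.757 and 0.646 CPM at D10 and a mean of 0.0342 CPM at D7, near the limit of counting. Replicate 2 of D10 lay close to both other D10 libraries for these 3 genes.

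The 3 members lower at D10 were Airn, Impact and Commd1. Airn, the antisense RNA that silences Igf2r in the placenta and embryo, had 4.22, 4.15 and 3.76 CPM at D10, against 11.5, 13 and 18.8 CPM at D7 (-1.83 ± 0.49, edgeR adjusted p = 0.0044). Impact, an inhibitor of the amino acid sensor kinase GCN2, had 125, 122 and 109 CPM at D10, against 197, 203 and 186 CPM at D7 (-0.72 ± 0.12, edgeR adjusted p = 4.1e-05). Commd1, a copper and sorting protein, had 44.7, 41.6 and 35.2 CPM at D10, against 62.3, 63.4 and 56.6 CPM at D7 (-0.59 ± 0.13, edgeR adjusted p = 0.0011). For all 3 the D10 libraries lay below the D7 libraries, and replicate 2 was the middle D10 value.

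Igf2, H19, Plagl1, Mest, Cdkn1c and Igf2r were among the members lower at D25 than at D10, and Peg13 and Nap1l5 among those higher. Of the 40 members 18 were lower and 7 higher at D25 (62.5%), against 45.5% of all tested genes called, 21.6% lower and 23.9% higher. The median member differed by -0.18 on the log2 scale, against 0 over all tested genes. The days hold the same mixture of library sets. Over the same interval retinal progenitor markers summed to 1030 to 1470 CPM at D25 and 1930 to 2110 CPM at D10, photoreceptor markers to 3630 to 5520 CPM at D25 and 34.9 to 57.3 CPM at D10, and pigment epithelium markers to 19.8 to 34.3 CPM at D25 and 980 to 1140 CPM at D10, and their part in the member differences was not tested.

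Igf2 had 61.2, 63.5 and 82.1 CPM at D25, against 579, 604 and 623 CPM at D10 (log2 difference -3.13 ± 0.51, edgeR adjusted p = 1.4e-05). H19 had 24.9, 20.8 and 36.6 CPM at D25, against 150, 277 and 154 CPM at D10 (-2.82 ± 0.33, edgeR adjusted p = 1.1e-07). The 2 genes of this cluster were thus both lower at D25 with no overlap. Plagl1 had 166, 201 and 137 CPM at D25, against 741, 1210 and 702 CPM at D10 (-2.40 ± 0.60, edgeR adjusted p = 0.0017). Mest had 213, 172 and 114 CPM at D25, against 777, 1070 and 669 CPM at D10 (-2.33 ± 0.35, edgeR adjusted p = 5.3e-06). In neither gene did any D25 library reach a D10 library, and all 4 genes stayed called in the libraries with many pseudogene counts alone.

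Cdkn1c was also lower at D25, at 29.1, 30.4 and 48.9 CPM, against 185, 138 and 160 CPM at D10 (-2.16 ± 0.25, edgeR adjusted p = 6.5e-08). Igf2r, which clears Igf2 from the cell surface, had 95.1, 70.2 and 79.7 CPM at D25, against 226, 221 and 238 CPM at D10 (-1.48 ± 0.21, edgeR adjusted p = 1.8e-06). No D25 library reached a D10 library for either gene. Grb10, an adaptor that dampens insulin and IGF receptor signalling, had 12.15, 35.9 and 22.8 CPM at D25, against 57.4, 349 and 41.6 CPM at D10. Its call (-2.66 ± 0.86, edgeR adjusted p = 0.013) was lost without D10 replicate 2 (-1.06, edgeR adjusted p = 0.32) and without D25 replicate 1 (-2.34, edgeR adjusted p = 0.064). In the libraries with many pseudogene counts alone it was -1.53 (edgeR adjusted p = 0.0062).

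Other members lower at D25 were Phlda2, Ascl2 and Kcnq1, each with means below 1 CPM on both days, and Dio3, Magel2, Peg12, Peg3, Nespas, Peg10, Impact and Gnas. Phlda2 had no count in any D25 library, which puts it at least 5.95-fold lower than its D10 mean of 0.278 CPM when 3 counts over the D25 libraries are taken as the floor. Peg3, a zinc finger protein that acts on growth and maternal behaviour in mice, averaged 307 ± 100 CPM at D25 and 666 ± 200 CPM at D10 (SD, n = 3 each; -1.12 ± 0.33, edgeR adjusted p = 0.0064). Gnas fell less, to 658 ± 72.1 CPM at D25, against 983 ± 9.36 CPM at D10 (-0.58 ± 0.13, edgeR adjusted p = 0.00056).

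The 7 members that were higher at D25 were Peg13, Nap1l5, Nnat, Commd1, Zrsr1, Inpp5f and Blcap. Peg13, a noncoding RNA inside an intron of Trappc9 that is known from brain, had 135, 251 and 119 CPM at D25, against 22.14, 31.27 and 21.99 CPM at D10 (2.74 ± 0.36, edgeR adjusted p = 7.4e-07). Its host Trappc9, annotated on the same strand, had 87.9 ± 9.57 CPM at D25 and 43.3 ± 4.13 CPM at D10 (SD, n = 3 each; 1.02 ± 0.19, edgeR adjusted p = 6.2e-05), and reads of both cannot be told apart with certainty. Nap1l5, an intronless gene of the nucleosome assembly family, had 23.7, 26.9 and 37.2 CPM at D25, against 6.32, 3.33 and 4.81 CPM at D10 (2.60 ± 0.28, edgeR adjusted p = 2.7e-08). Neither gene overlapped between days.

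Nnat had 955, 936 and 1530 CPM at D25, against 578, 263 and 670 CPM at D10 (1.18 ± 0.36, edgeR adjusted p = 0.0088). Its call was lost in 3 of the alternatives, at adjusted p between 0.061 and 0.069, namely without D10 replicate 2, without D25 replicate 3, and in the libraries with many pseudogene counts alone. Zrsr1, a retrogene of a U2AF-related splicing factor, had 38.2, 34.5 and 34.5 CPM at D25, against 18.5, 14.2 and 16.3 CPM at D10 (1.13 ± 0.17, edgeR adjusted p = 3.3e-06). It lies within an intron of Commd1 on the opposite strand, and Commd1 had 80.4, 103 and 82 CPM at D25, against 44.7, 41.6 and 35.2 CPM at D10 (1.13 ± 0.13, edgeR adjusted p = 1.2e-07). Inpp5f, a phosphoinositide phosphatase, was higher by 0.83 ± 0.11 (edgeR adjusted p = 1e-06). Blcap, the host gene of Nnat on the opposite strand, was higher by 0.69 ± 0.16 (edgeR adjusted p = 0.0007).

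In the last interval, after serum and B27 were added to the medium, 4 members were higher and 3 lower at D32 than at D25 (17.5%), against 23.1% of all tested genes called, 9.31% higher and 13.8% lower. Without D25 replicate 1, or without D32 replicate 2, 4 members were called in all, with no share over all genes at hand for those fits. All D32 libraries belong to the set with many pseudogene counts. Photoreceptor markers summed to 6450 to 8320 CPM at D32 and 3630 to 5520 CPM at D25, and retinal progenitor markers to 694 to 779 CPM at D32 and 1030 to 1470 CPM at D25. In replicates 1, 2 and 3 of D32 choroid plexus markers summed to 398, 4.54 and 341 CPM. At D25 they summed to 12.8 to 30.2 CPM. Ttr averaged 237 CPM at D32 and each other listed choroid plexus marker at most 6.64 CPM, so that sum rests mostly on a single gene. The part of these cell types in the member differences was not tested.

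Zrsr1 had 73.6, 68.6 and 69.5 CPM at D32, against 38.2, 34.5 and 34.5 CPM at D25 (0.98 ± 0.16, edgeR adjusted p = 7e-05). Commd1 around it went the other way, with 64.7, 64.3 and 73.3 CPM at D32, against 80.4, 103 and 82 CPM at D25 (-0.39 ± 0.13, edgeR adjusted p = 0.031). Its call was lost in 7 of the alternatives, among them leaving out D25 replicate 2, D32 replicate 1 or D32 replicate 2 (edgeR adjusted p from 0.054 to 0.33 over the 7).

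Nnat had 317, 277 and 396 CPM at D32, against 955, 936 and 1530 CPM at D25 (-1.79 ± 0.37, edgeR adjusted p = 0.00074). Every D32 library lay below every D25 library, while Blcap averaged 82.2 ± 1.84 CPM at D32 and 77.7 ± 6.93 CPM at D25 (SD, n = 3 each). Peg12 was lower (-1.05 ± 0.35, edgeR adjusted p = 0.029), and Impact and Nap1l5 were higher, by 0.56 ± 0.12 and 0.72 ± 0.26 (edgeR adjusted p = 0.0012 and 0.046). The calls of Nap1l5 and Peg12 were lost in 19 and 5 of the alternatives, with adjusted p up to 0.18 and 0.11. The loss of Peg12 came on leaving out D25 replicate 1 or 3 or any D32 library. Ascl2 was called higher at means of 0.271 CPM at D32 and 0.0304 CPM at D25.

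Zim1, Rasgrf1, Kcnq1, Rtl1, Nespas, Slc22a18, Ascl2 and Mirg had day means below 10 CPM throughout. Rasgrf1, a Ras exchange factor of neurons, had its highest mean at D32 (2.62 ± 0.636 CPM) and changed over the 10 days (edgeR adjusted p = 0.0095) but in none of the 4 pairs of days.

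In the Dlk1-Dio3 cluster the protein-coding members changed over the 10 days, whereas the noncoding members did not pass and differed widely among libraries of one day. Dlk1, a membrane protein of the Notch ligand family that holds back differentiation, had 36.2, 35.4 and 50.7 CPM at D18, its highest day, and 4.98 to 13.6 CPM at D32. Dio3, the deiodinase that inactivates thyroid hormone, was highest at D12 with 12.6, 5.32 and 13.6 CPM. It was at 0.081, 0.117 and 0.727 CPM at D25, against 3.51, 3.39 and 3.05 CPM at D10 (-3.38 ± 0.58, edgeR adjusted p = 2.8e-05). Rtl1, a retrotransposon-derived gene of placental capillaries and muscle, stayed between 0.172 and 2.77 CPM in all libraries.

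Meg3 had 142, 131 and 103 CPM at D7, against 83.3, 136 and 166 CPM at D0, with overlapping values. At D10 it had 58.8 CPM in replicate 2, against 0.889 and 13 CPM in replicates 1 and 3. At D12 it had 22.24 CPM in replicate 2, against 3.39 and 15.8 CPM in replicates 1 and 3. Replicate 2 was the highest library of both days. At D15 the values were 155 CPM in replicate 2, against 13.3 and 38.2 CPM in the other libraries, and at D18 310 CPM in replicate 2, against 3.44 and 51.2 CPM. At D22 they were 356 CPM in replicate 2, against 5.02 and 1.5 CPM, and at D25 319 CPM in replicate 2, against 23.1 and 1.29 CPM. Replicate 2 thus lay above both other libraries on 6 of 6 days, and the gap was widest at D22 and D25. At D4 Meg3 had 3.88 to 13.4 CPM and at D32 6.3 to 52.9 CPM.

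Rian, which hosts small nucleolar RNAs and microRNAs, had 82.5, 93.5 and 82.1 CPM at D7, against 44.9, 60.4 and 66.4 CPM at D0. From D10 to D25 replicate 2 held 15.14 to 143 CPM (median 94.2, 6 libraries), against 1.45 to 21 CPM (median 5.07, 12 libraries) in replicates 1 and 3. Mirg held 0.762 to 11.4 CPM (median 7.21) in replicate 2, against 0.0158 to 1.44 CPM (median 0.418) in replicates 1 and 3. The pooled ranges of Rian and Mirg overlapped at their ends, where replicate 2 of D12 was the lowest of the replicate 2 libraries for both.

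None of the 3 noncoding RNAs passed between D10 and D7, with log2 differences of -2.37 ± 1.57 (Meg3), -3.05 ± 1.37 (Rian) and -3.13 ± 1.38 (Mirg; edgeR adjusted p = 0.25, 0.083 and 0.078). Without replicate 2 of D10 to D25 the log2 differences were -4.19 for Meg3, -4.77 for Rian and -3.89 for Mirg, given with no test because those libraries were set apart by the cluster's own noncoding RNAs. With the library set as a term they were -0.61, -1.42 and -1.32, also given with no test, since from D10 to D25 the set coincides with replicate 2. Between D7 and D0 none of them passed either, at -0.04 ± 1.48 (Meg3), 0.59 ± 1.25 (Rian) and 0.85 ± 1.21 (Mirg; edgeR adjusted p = 0.99, 0.71 and 0.58). In the 12 libraries with few pseudogene counts alone, the log2 differences were -0.04, 0.59 and 0.84 in the same order. Those are given with no test, since that fit was added after seeing the data and holds 1 library per day from D10 to D25.

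Over all 30 libraries Meg3 ranged from 22.24 to 356 CPM (median 139) in the set with few pseudogene counts, against 0.889 to 52.9 CPM (median 12.19) in the set with many. Rian ranged from 15.14 to 143 CPM (median 75.2), against 1.45 to 21 CPM (median 6.02). Libraries of both sets thus overlapped for these genes, and the part of the set in their levels was not tested apart from day and replicate number.

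**Figure D3:**
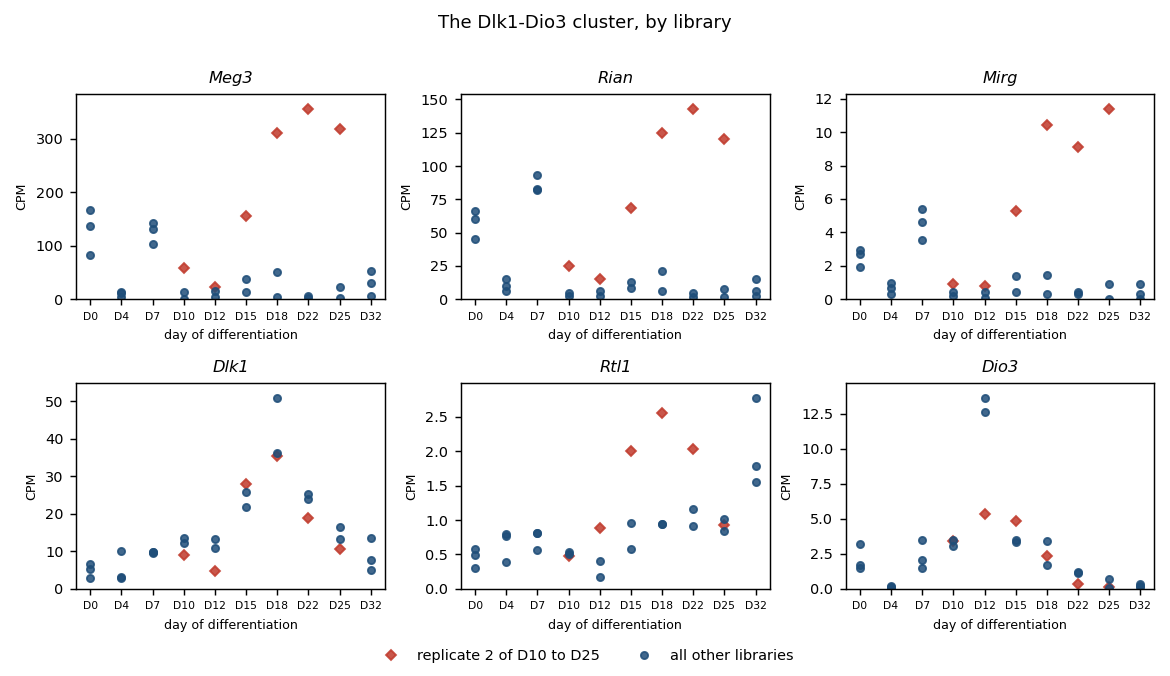
CPM (vertical axes, from 0) of the 6 measured genes of the Dlk1-Dio3 cluster on each day of differentiation (horizontal axes); diamonds are replicate 2 of D10 to D25 and circles all other libraries. Replicate 2 lies above both other libraries of its day for Meg3, Rian and Mirg on all 6 days, while Dlk1 peaks at D18 in all 3 replicates.

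Replicate 2 of D10 to D25 was set against replicates 1 and 3 in a model with the day as a term. This split was noticed in Meg3 and Rian in these data, and Mirg lies in the same run of noncoding RNA, so their difference is given without a test: their means were 203, 82.7 and 6.32 CPM in replicate 2, against 14.2, 6.48 and 0.532 CPM in replicates 1 and 3. Of the 35 other members that could be tested, 5 were higher and 8 lower in replicate 2, which is 37.1% of them. Over all 18291 genes tested, 4.71% were called, 2.28% higher and 2.43% lower. Since the split was chosen on members, nothing is drawn from the share itself. The fit takes the 6 replicate 2 libraries as independent of each other. They all lie in the same library set, and if they share a source of difference, the p-values of this comparison are too small.

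The 8 members lower in replicate 2 are all known as paternally expressed, as are 24 of the 38 members in this fit, of which 3 were higher (Plagl1, Peg13 and Rtl1). The 8 were Ndn, Snrpn, Magel2, Mkrn3 and Peg12 of the Prader-Willi region, Peg3 and Usp29 of the Peg3 domain, and Nnat. Apart from Nnat, each lay below both other libraries on 6 of 6 days. How many of all tested genes lay on the same side on every day is not at hand, so such counts of days, here and below, are description only. Ndn held 87.9 to 122 CPM (median 104) in replicate 2, against 167 to 323 CPM (median 264) in replicates 1 and 3. It differed by -1.27 ± 0.14 on the log2 scale (edgeR adjusted p = 1.1e-05), and the libraries of the 6 days did not overlap even when pooled.

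Snrpn held 63.2 to 154 CPM (median 90.8) in replicate 2, against 131 to 308 CPM (median 186) in replicates 1 and 3 (-0.95 ± 0.08, edgeR adjusted p = 3e-07). Mkrn3 held 10.8 to 15.4 CPM (median 13.2), against 17.9 to 27.1 CPM (median 24.5) in replicates 1 and 3 (-0.83 ± 0.10, edgeR adjusted p = 3.3e-05). Mkrn3 did not overlap over the pooled days, and Snrpn overlapped between its late replicate 2 and its early replicates 1 and 3. Magel2 and Peg12 were lower, with log2 differences of -0.75 ± 0.13 and -0.69 ± 0.08 (edgeR adjusted p = 0.0013 and 4.1e-05).

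Peg3 held 148 to 440 CPM (median 225) in replicate 2, against 251 to 822 CPM (median 383) in replicates 1 and 3 (-0.83 ± 0.09, edgeR adjusted p = 8e-06). Usp29, which starts from the same bidirectional window, held 16.4 to 29.1 CPM (median 23.8), against 31.9 to 49.9 CPM (median 39.5) in replicates 1 and 3 (-0.81 ± 0.09, edgeR adjusted p = 9.1e-06). The 2 divergent genes differed by nearly the same amount, and Usp29 did not overlap over the pooled days. Zim1, a zinc finger gene of the same domain known as maternally expressed, went the other way (1.00 ± 0.27, edgeR adjusted p = 0.044) at 5.4 ± 2.36 CPM in replicate 2 (SD, n = 6) and 3.23 ± 2.53 CPM in replicates 1 and 3 (SD, n = 12). The calls of Zim1 and Nnat (-0.63 ± 0.17, edgeR adjusted p = 0.039) were lost in 14 and 11 of the alternatives, most of them the loss of 1 library, with adjusted p up to 0.3 and 0.23 (edgeR).

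**Figure D4:**
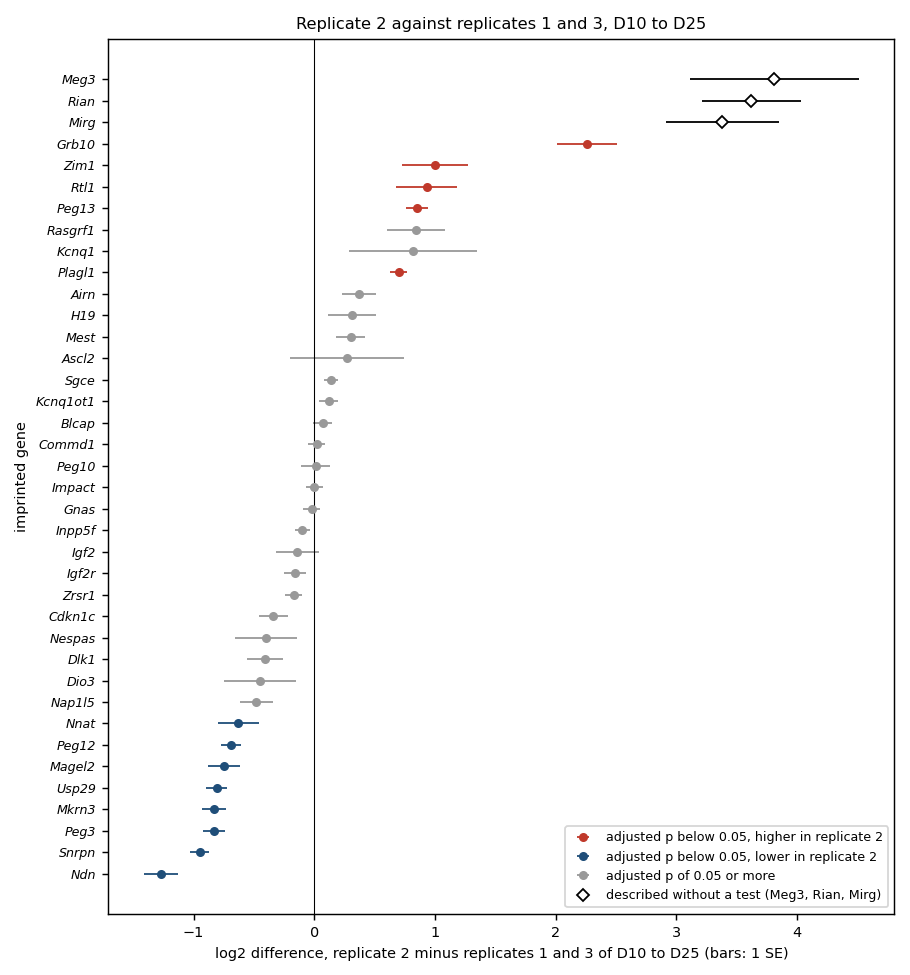
Log2 difference between replicate 2 and replicates 1 and 3 over D10 to D25 (horizontal axis) for the 38 imprinted genes that entered this fit (rows); points are fitted values and bars 1 SE, and open diamonds mark Meg3, Rian and Mirg, which are described without a test. Ndn (-1.27) lies lowest and Grb10 (2.26) highest among the others.

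The 5 members higher in replicate 2 were Grb10, Zim1, Rtl1, Peg13 and Plagl1. Grb10 held 24.3 to 349 CPM (median 84.5) in replicate 2, against 5.79 to 57.4 CPM (median 13.1) in replicates 1 and 3. It was above both other libraries on 6 of 6 days (2.26 ± 0.25, edgeR adjusted p = 1.4e-05), and at D10 its 349 CPM in replicate 2 lay above the 228 to 324 CPM of D7. Replicates 1 and 3 of D10 held 57.4 and 41.6 CPM, close to the 36.4 to 48.8 CPM of D4. Over all days Grb10 ranged from 24.3 to 349 CPM (median 220) in the set with few pseudogene counts, against 5.79 to 57.4 CPM (median 23.9) in the set with many.

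Plagl1 and Peg13 were higher in replicate 2 on 6 of 6 days. Plagl1 reached 1600 CPM in replicate 2 of D12, against 949 and 914 CPM in replicates 1 and 3 (0.70 ± 0.07 over the 6 days, edgeR adjusted p = 5.3e-06). Choroid plexus markers summed to 562 CPM in that library, against 62.3 and 30.8 CPM in replicates 1 and 3 of D12. Ttr averaged 189 CPM at D12 and each other marker of that list at most 14.3 CPM. Peg13 reached 251 CPM in replicate 2 of D25, against 135 and 119 CPM in replicates 1 and 3 (0.85 ± 0.09, edgeR adjusted p = 9.6e-06). Trappc9, around Peg13, did not pass (54.5 ± 23.2 CPM in replicate 2 and 59.3 ± 16.6 CPM in replicates 1 and 3, SD, n = 6 and 12, -0.18 ± 0.11). Rtl1 (0.93 ± 0.25, edgeR adjusted p = 0.043) lies over the strand of the Meg3 group, counting by strand is not stated, and its call was lost in 19 of the alternatives.

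Members of the Igf2-H19, Igf2r and Gnas clusters, and Mest and Cdkn1c, did not pass in this comparison. Igf2 held 63.5 to 604 CPM (median 280) in replicate 2, against 61.2 to 641 CPM (median 281) in replicates 1 and 3 (-0.14 ± 0.18, edgeR adjusted p = 0.74). H19, Igf2r, Airn, Cdkn1c, Mest and Gnas had log2 differences between -0.34 (Cdkn1c) and 0.37 (Airn). Dlk1 was below both other libraries on 5 of 6 days and missed the threshold (-0.41 ± 0.15, edgeR adjusted p = 0.13). Rasgrf1 was above both on 6 of 6 days and missed it too (0.84 ± 0.24, edgeR adjusted p = 0.058).

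**Figure D5:**
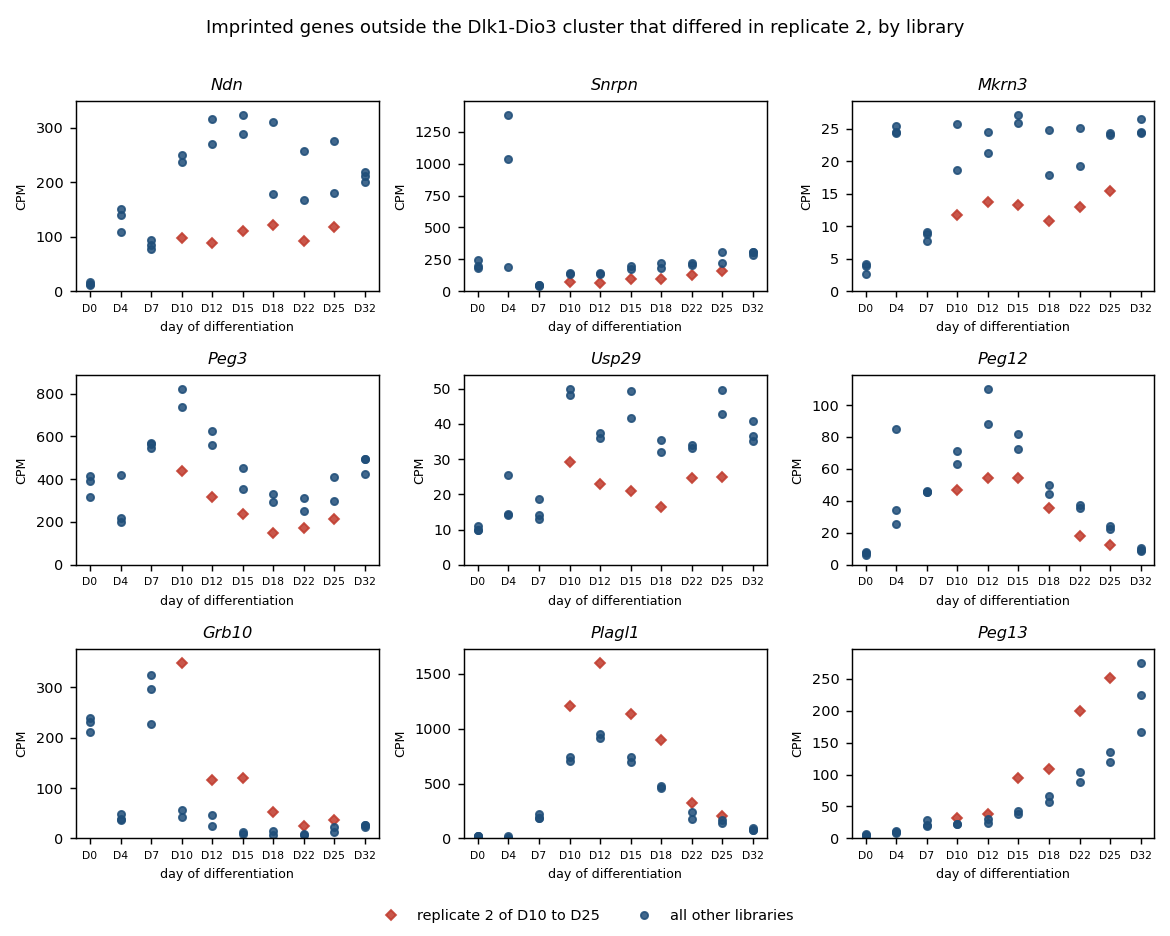
CPM (vertical axes, from 0) of 9 imprinted genes outside the Dlk1-Dio3 cluster on each day of differentiation (horizontal axes); diamonds are replicate 2 of D10 to D25 and circles all other libraries. Replicate 2 is the lowest library of each of the 6 days for Ndn, Snrpn, Mkrn3, Peg3, Usp29 and Peg12 and the highest for Grb10, Plagl1 and Peg13.

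The change from D10 to D25 within replicate 2 was compared with that in replicates 1 and 3 as an interaction. No member was called by edgeR, and 1 of 18291 genes was called (0.00547%). An unadjusted p below 0.05 was found for 5 of 38 members (13.2%), against 6.02% of all genes. Each arm of replicate 2 is a single library here, which is assumed to vary like the others. The 5 were H19, Kcnq1, Zim1, Peg10 and Grb10. Grb10 had 35.9 CPM at D25 and 349 CPM at D10 in replicate 2, and a mean of 17.5 CPM at D25 and 49.5 CPM at D10 in replicates 1 and 3.

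Of 43 tested markers of 11 cell types, 2 were called between replicate 2 and replicates 1 and 3 by edgeR, against 4.71% of all 18291 genes tested. DESeq2 called 4, and 12 had an unadjusted edgeR p below 0.05, counts for which no share over all genes is at hand. The 2 called by edgeR were lower in replicate 2, namely the pigment cell genes Tyr (-0.82 ± 0.23) and Pmel (-1.07 ± 0.19). Pigment epithelium markers summed to 19.8 to 980 CPM (median 42.3) in replicate 2, against 22.6 to 1140 CPM (median 75.7) in replicates 1 and 3. Rpe65 of that list was near the limit of counting throughout, with day means of at most 0.0196 CPM. Feeder and fibroblast markers summed to 9.77 to 126 CPM (median 18.4) in replicate 2, against a median of 47.3 CPM and at most 149 CPM in replicates 1 and 3. Choroid plexus markers summed to 6.19 to 562 CPM (median 22.8) in replicate 2, against 14.9 to 146 CPM (median 35.4) in replicates 1 and 3. At D18 they summed to 130 CPM in replicate 2, against 28.3 and 31.3 CPM in replicates 1 and 3. Most of the D12 and D18 means of this sum was Ttr, at 189 and 54.4 CPM. The part of these cell types in the differences of the members was not tested.

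Of 15 listed genes that keep or read imprints, 13 could be tested between replicate 2 and replicates 1 and 3. None was called by edgeR, against 4.71% of all genes tested. DESeq2 called 1, and 2 had an unadjusted edgeR p below 0.05, again with no share over all genes at hand. At D7, 3 of the 15 were higher and 9 lower than at D0, against 58.4% of all genes called, among them the cofactor of de novo methylation Dnmt3l, with 4.68 ± 1.11 CPM at D7 and 557 ± 85.8 CPM at D0 (SD, n = 3 each), and the oocyte factor Dppa3. Zfp57 had 127 ± 6.74 CPM at D10 and 45.2 ± 3.9 CPM at D7 (1.49 ± 0.24, edgeR adjusted p = 3.6e-05), when 4 listed genes were higher and 4 lower, against 37.8% of all genes called. At D25, 2 were higher and 9 lower than at D10, against 45.5% of all genes called, with Uhrf1, which recruits the maintenance methyltransferase, at 39.6 ± 9.9 CPM at D25 and 221 ± 9.83 CPM at D10 (-2.48 ± 0.20, edgeR adjusted p = 2.7e-10). At D32, 1 was higher and 5 lower than at D25, against 23.1% of all genes called, and Dnmt1 itself had 84.7 ± 10.5 CPM at D32 and 155 ± 4.97 CPM at D25 (-0.87 ± 0.15, edgeR adjusted p = 0.00013).

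A further list held 34 genes of imprinted regions. Between replicate 2 and replicates 1 and 3, 26 were tested and 2 were called, against 4.71% of all genes tested, and both were lower in replicate 2. They were Snhg14, the long transcript that continues from Snrpn and runs antisense to Ube3a, with 53 ± 34.3 CPM in replicate 2 (SD, n = 6) and 78.6 ± 46.2 CPM in replicates 1 and 3 (SD, n = 12; -0.58 ± 0.13, edgeR adjusted p = 0.014), and Zfp264 of the Peg3 domain (-1.52 ± 0.34, edgeR adjusted p = 0.014) at below 1 CPM. Snhg14 was higher at D25 than at D10, with 137 ± 35.7 CPM at D25 and 34.7 ± 9.14 CPM at D10 (SD, n = 3 each; 1.98 ± 0.43, edgeR adjusted p = 0.00047). Of 30 genes tested in each pair of days, 8 were higher and 12 lower at D7 than at D0, 8 higher and 5 lower at D10 than at D7, 6 higher and 6 lower at D25 than at D10, and 5 higher and 2 lower at D32 than at D25. Over all tested genes 58.4%, 37.8%, 45.5% and 23.1% were called in these 4 comparisons, so the counts of this list lay near the background. Sfmbt2, a Polycomb-related gene of the placenta, stood at 4.6 ± 0.93 CPM at D7 and 110 ± 17.1 CPM at D0 (-4.58 ± 0.33, edgeR adjusted p = 1.5e-11), and Begain, next to Dlk1, at 43.9 ± 10.4 CPM at D25 and 12.5 ± 0.784 CPM at D10 (1.81 ± 0.24, edgeR adjusted p = 9.4e-07).

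The make-up of transcripts is given as shares of the gene's count, without a test. The shorter Nnat-002 made up 28.1% ± 5.42 of Nnat at D25 and 5.15% ± 1.58 at D10 (SD, n = 3 each), and Nnat-001 67.7% ± 3.68 at D25 and 86.2% ± 2.33 at D10. Snrpn-201 made up 12.4% ± 1.51 at D32 and 0.542% ± 0.307 at D0, days that lie in different library sets. Sgce-005 made up 36% ± 4.29 of Sgce at D25 and none of the count at D0, while Sgce-007 made up 1.16% ± 1.31 at D25 and 28% ± 3.9 at D10. D25 replicate 2 lies in the same library set as D0, and D25 replicates 1 and 3 lie in the other. The 14548-base transcript Meg3-001 made up 43.9% to 64.4% of Meg3 (median 55.2%, 6 libraries) in replicate 2, against 43.5% to 76.7% (median 52.9%, 12 libraries) in replicates 1 and 3. The shares thus overlapped between replicates.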

How the data were processed

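RNA was measured in 30 libraries of 10 days, 3 per day, grouped by their labels. Per the submitters' processing notes the authors used Trimmomatic 0.36, kallisto 0.42.4, the GRCm38.p4 build and edgeR, and deposited estimated counts per gene and per transcript. The library kit was directional; whether strand was used in counting is not given in the sources used here. In all, 9 columns of the deposited tables match no sample and were not used. Pseudoalignment divides reads between near-identical copies by estimate.

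Estimated counts per gene were rounded and tested with edgeR 4.0.16 (R 4.3.3): TMM factors, genes kept by day at a count minimum of 10 and a total minimum of 15 (19897 of 45594), a quasi-likelihood fit with 1 mean per day over all 30 libraries, and Benjamini-Hochberg adjustment over all genes tested. Contrasts were all 10 days, D7 against D0, D10 against D7, D25 against D10 and D32 against D25. Replicate 2 was tested against replicates 1 and 3 in the 18 libraries of D10 to D25 with day as a term (18291 genes), libraries of different days being taken as independent. The labels do not say that replicates came from separate cultures on separate days, so p-values measure the spread between these libraries, which may be technical. On simulated counts the fit recovered 48.4% of genes changed by 1 on the log2 scale between D7 and D0, and 91.9% between replicate 2 and the others. The simulation gave all genes the same spread, drew libraries independently and held no effect of library set. These shares therefore need not hold for members that vary more, such as Meg3, Rian, Mirg and Grb10. TPM was computed from transcript counts and annotated lengths.

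The members, gene lists and tests were chosen with earlier results of these data known. The text names, per comparison, up to 6 members in each direction with the largest change among those called whose highest day mean was at least 20 CPM, and all measured members of the Dlk1-Dio3 cluster; other called members were named after their values were seen. Alternatives were RLE factors, no expression filter, DESeq2 1.42.0, a replicate block, the library set as a term, replicate 2 of D10 to D25 left out, either other replicate alone, and each library left out. Fits within a library set and the interaction were added after seeing the data. Phlda2 and Slc22a18 were too low for the replicate comparison. Depth was 16.77 to 24.53 M counts per library, which limits the precision of members under 1 CPM.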

Additional observations from a re-analysis of the deposited data

How the results depend on the processing

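Of 2511 repeated values for the single members, 2383 kept their direction and side of the threshold, 112 lost the call, 16 gained one and 0 reversed. Members called ranged, with each library left out, over 37 to 40 for all 10 days, 23 to 26 for D7 against D0, 8 to 16 for D10 against D7, 24 to 27 for D25 against D10, 4 to 10 for D32 against D25, and 10 to 15 for replicate 2 against replicates 1 and 3 of D10 to D25. The lowest count for D32 against D25 came without D25 replicate 1 and without D32 replicate 2, and the cause was not tested. The share of all genes called in these fits is not at hand, so the ranges are description only. Plagl1 had no DESeq2 adjusted p in some comparisons and is not counted there.

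No contrast was taken as paired by replicate number, since in none did all 3 same-numbered correlations of deviations pass 0.1 (from -0.22 to 0.28). For D25 against D10 replicates 1, 2 and 3 gave -0.02, 0.28 and 0.14. From D10 to D25 replicate 2 coincided with the library set with few pseudogene counts, so there the number did mark libraries of different days. With a replicate block 26 members were called for D7 against D0, 15 for D10 against D7, 25 for D25 against D10 and 7 for D32 against D25. The share of all genes called with the block is not at hand, so these counts are description only. Meg3, Rian and Mirg are counted among the 15 for D10 against D7, with log2 differences of -3.68, -3.98 and -3.87. These are given with no test, because the block takes up the split that was noticed in this cluster's noncoding RNAs. For the same reason nothing is drawn from the count of 15. Depth limits what can be said of members under 1 CPM.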
